A study of Mus musculus with 5 samples.

Results

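Myosin heavy chain genes were followed across 5 RNA sequencing libraries of B16F10 cells, a pigmented mouse melanoma line. The 10 members were the rows of the deposited expression table whose gene symbol was Myh1, Myh2, Myh3, Myh4, Myh6, Myh7, Myh8, Myh9, Myh10 or Myh11, and all 10 were found among its 54699 genes. The working name of the set refers to skeletal and cardiac muscle, and 7 members are heavy chains of the sarcomere. The other three, Myh9, Myh10 and Myh11, are non-muscle and smooth muscle chains, so the set is described here as 7 sarcomeric and 3 other chains. All cultures carried a lentivirus and grew in medium with serum. Cells with forced expression of mouse Myod1, cells with forced expression of mouse Pparg and cells with the empty expression vector (genotype labelled wild type) were collected on day 8. Cells with a short hairpin RNA against Setdb1 and cells with the empty knockdown vector (also labelled wild type) were collected on day 7. The labels name neither the promoter of the transgenes nor whether cultures were clonal. The Myod1 and Pparg libraries share 1 control library, and every group is a single library, so differences were compared with no replicate and no p-value.

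Class II myosin heavy chains are the motor proteins of the thick filament: 2 chains pair through a coiled-coil tail, and each head binds actin, splits ATP and carries an essential and a regulatory light chain. Vertebrate skeletal muscle swaps chains as it matures. Embryonic (Myh3) and perinatal (Myh8) chains come first, and adult fast fibres use Myh2, Myh1 and Myh4, while Myh7 serves slow fibres and heart ventricle and Myh6 serves the atrium and the adult mouse heart. The fast and developmental genes lie side by side in one cluster, and Myh6 and Myh7 form a separate pair. Myh9, Myh10 and Myh14 build the non-muscle filaments used for cell shape, adhesion and division, and Myh11 is the chain of smooth muscle.

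The libraries held between 16214802 and 18300670 reads assigned to genes, recovered from the deposited FPKM (fragments per kilobase of gene length, scaled to a library size, which here was between 0.859 and 1.10 times the library's own reads). Ranges in brackets after a level are 95% Wilson intervals for the gene's reads out of all reads of that library, and those after a ratio are exact conditional intervals. Both cover counting error only. Myod1 had 7610 reads in its own library and 0 in the other 4, Pparg had 2514 and 0, and Setdb1 kept an FPKM of 0.867 in the knockdown library against 9.82 in the empty knockdown vector control. All 9 melanocyte markers on the list stayed at an FPKM of at least 1 in each library, with summed levels between 2310 and 9129. The sum was 3317 with Myod1 expression and 7824 in its control. In RNA from whole cultures, fewer cells of a type and less RNA per cell cannot be told apart.

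In the Myod1 expression library 4 of the 7 sarcomeric chains stood far above their level in the empty expression vector control, led by the embryonic chain Myh3. Myh3 (ENSMUSG00000020908, chromosome 11, 67078300 to 67102291, GRCm38) had an FPKM of 2044 (2035 to 2053) in the Myod1 expression library. The empty expression vector control had 0.162 (0.0995 to 0.263), and the Pparg expression library had 0.138 (0.0848 to 0.224). With Setdb1 knockdown it had 0.268 (0.188 to 0.382), and in the empty knockdown vector control 0.148 (0.0898 to 0.244). The Myod1 library thus stood far above the other 4, whose intervals overlapped. Its 194661 reads made Myh3 the gene with the third most reads there and 1.06% of all reads, against 16 reads in the control, a ratio of 12640 with an exact counting interval of 7783 to 22114. On the log2(FPKM + 1) scale used for all comparisons, which understates changes of low genes, the difference was 10.78.

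Myh8, the perinatal chain (ENSMUSG00000055775, chromosome 11, 67277124 to 67308634), had an FPKM of 7.98 (7.58 to 8.40) with Myod1 expression. It was at 0 reads in both controls and with Setdb1 knockdown, and at 1 read (FPKM 0.00443) with Pparg expression. Set against a floor of 3 reads in the empty expression vector library, its level was at least 511-fold higher. Myh6 (ENSMUSG00000040752, chromosome 14, 54941921 to 54966927) had 372 reads and an FPKM of 3.52 (3.18 to 3.89) with Myod1 expression, and between 0 and 2 reads in the other libraries. Its ratio to the control was 193 with an exact counting interval of 53.1 to 1602. Myh7 (ENSMUSG00000053093, chromosome 14, 54970684 to 54994626) had 353 reads and an FPKM of 2.61 (2.35 to 2.89) with Myod1 expression and 0 reads elsewhere, at least 122-fold higher than the control. The Myod1 library was therefore the highest for each of these 4 chains, and for none of them did its interval overlap that of another library.

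The adult fast chains were at or under 1 read. Myh2 (chromosome 11, 67171027 to 67197517) and Myh1 (chromosome 11, 67200052 to 67224575) had 0 reads in all 5 libraries, and Myh4 (chromosome 11, 67238029 to 67260446) had 1 read, in the Myod1 expression library. At 0 reads in that library the upper Wilson limit was an FPKM of 0.0385 for Myh1 and 0.0342 for Myh2, and the 1 read of Myh4 gave 0.0106 (0.00187 to 0.0599). Myh2, the member nearest to the highly expressed Myh3, starts 92.7 kb downstream of the Myh3 start.

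**Figure D1:**
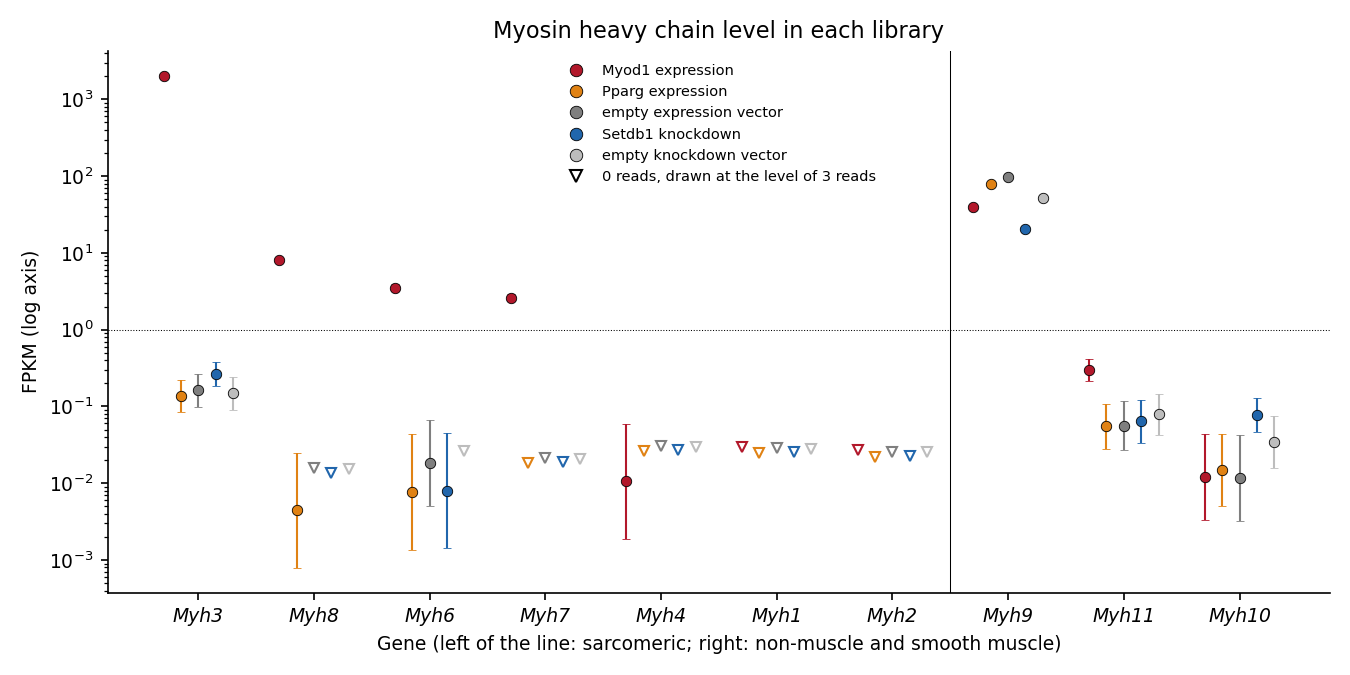
FPKM (log axis) of the 10 heavy chain genes in the 5 libraries, with 95% Wilson intervals where they exceed the point, and open triangles for 0 reads drawn at the level of 3 reads. Myh3 reached 2044 in the Myod1 expression library and stayed below 0.3 elsewhere, while Myh9 lay between 20.7 and 96.9 in all 5.

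Counted over all 10 members, 4 were at least 2-fold higher with Myod1 expression than in the empty expression vector control and 1, Myh9, was at least 2-fold lower. Of the 12842 genes compared, those whose FPKM reached 1 in any library, 14.0% were higher and 7.55% were lower by the same limit. Only 5 of the 10 members passed that filter on low values, and 4 of these passed it through the Myod1 library alone. The median log2 ratio of the 7 sarcomeric members was 1.85, against 0.02 over all genes compared. Against the empty knockdown vector control the same 4 were higher (15.1% of genes) and 0 were lower (7.51% of genes), since Myh9 was not called. The log2 ratio of Myh3 there was 10.80.

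Within the Myod1 library the order of levels was Myh3, Myh8, Myh6, Myh7, and Myh3 held 99.3% of the summed FPKM of the sarcomeric members. Myh3 was 256 times Myh8 (243 to 270) in FPKM. The gene models behind the FPKM differ in length, however: that of Myh8 spans 11772 bases, 2.02 times its coding sequence, while that of Myh3 spans 6057, 1.04 times its coding sequence. Per kilobase of coding sequence, Myh8 stood at 16.2 (15.4 to 17.0) and Myh3 at 2126, so the gap was 132-fold (125 to 139). Myh6 and Myh7 exchanged no places but came close: their ratio was 1.35 (1.16 to 1.57) in FPKM and 1.05 (0.907 to 1.22) per coding length, where the interval includes 1. The share of Myh3 was 98.9% per coding length.

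Reads that fit more than 1 of these related genes could be placed or dropped in ways that the sources used here do not state. The coding sequences of Myh1 and Myh2 are 91.0% identical, those of Myh6 and Myh7 91.45%, and those of Myh3 and Myh8 80.6%. Of the 100-base windows of the Myh3 coding sequence, 98.8% occurred in no transcript of another gene in GENCODE release M21, on either strand. The share was 93.0% for Myh8, 96.0% for Myh4, 89.9% for Myh2, 86.5% for Myh1, 88.0% for Myh6 and 85.1% for Myh7. With 50-base windows, 4.99% of those of Myh3 and 31.7% of those of Myh1 also occurred in other genes. The part of shared reads in the levels of these genes, 0 counts included, was not tested.

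The members of the skeletal cluster cover 230.3 kb from the Myh3 start to the Myh8 end, a span that holds 9 genes of the table. The 5 members lie in the order Myh3, Myh2, Myh1, Myh4, Myh8, so the 2 detected chains are the outermost of these 5. The other 4 genes inside, among them the antisense RNA Myhas and the long RNA 2310065F04Rik, had 0 reads in all 5 libraries. On the side of Myh3 the nearest neighbours were Sco1, a copper chaperone of cytochrome c oxidase, with a log2 ratio of 1.02 with Myod1 expression (0.61 against the other control, under the limit), and Adprm, with 0.40. On the side of Myh8 lay Myh13, the extraocular muscle chain and no member of the set, with 1 read against 2 in the control. Myh13 is on the same strand, so Myh8 is not the last heavy chain gene in this row. In the cardiac pair, 7 further genes overlapped the 52.7 kb span, including the antisense RNA Mhrt, and all 7 had 0 reads in every library. Cmtm5 (-0.62) and Ngdn (0.03), which flank the pair, were not called.

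**Figure D2:**
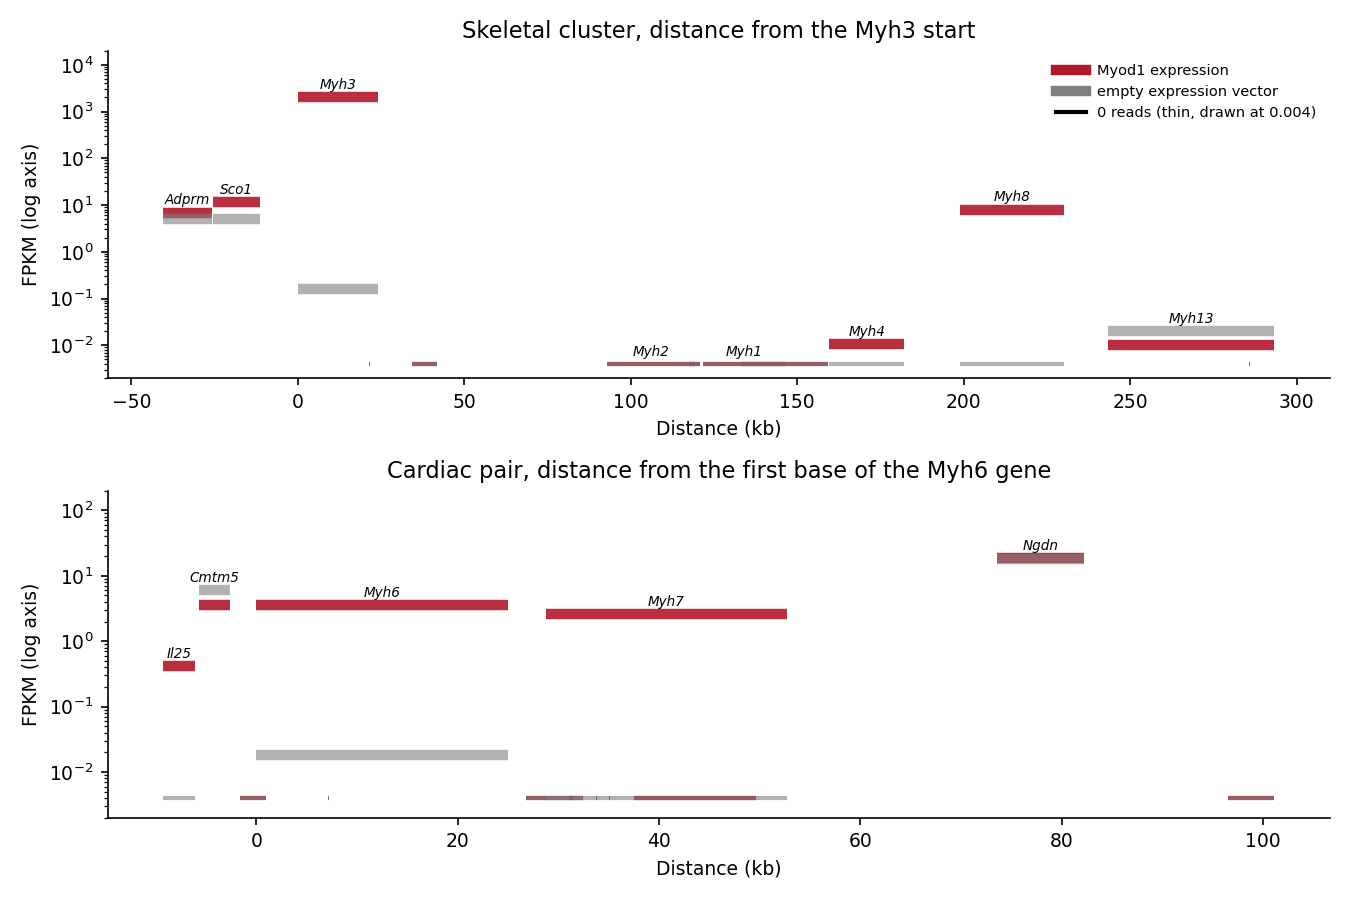
FPKM (log axis) along the skeletal cluster and the cardiac pair, as distance in kb from the first base of Myh3 or Myh6, in the Myod1 expression and empty expression vector libraries. Bars span each gene, thin bars at 0.004 mark 0 reads, and protein-coding genes are named. Myh3 and Myh8, the outermost of the cluster's members in the set, carry the Myod1 library's signal, with Myh2 and Myh1 at 0 reads between them.

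Because neighbours with related coding sequences had such different levels, the 250 bases before the start of each cluster member are shown for comparison, from RefSeq on GRCm38.p6, 5′ to 3′. Capitals mark each CANNTG, the core of the E-box bound by factors of the Myod1 family. The detected genes come first, then those at 0 or 1 read. The RefSeq starts of Myh3, Myh8 and Myh2 equal the gene starts given above. Those of Myh1 and Myh4 do not: the Myh1 window runs into the gene as the table places it, and the Myh4 window ends before that gene's first base.
Myh3, chr11:67078050-67078299, plus strand: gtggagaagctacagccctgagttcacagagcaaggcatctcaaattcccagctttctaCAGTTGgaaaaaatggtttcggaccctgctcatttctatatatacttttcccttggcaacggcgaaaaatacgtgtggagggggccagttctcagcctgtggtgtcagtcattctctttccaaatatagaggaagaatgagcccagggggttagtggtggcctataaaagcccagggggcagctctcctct
Myh8, chr11:67276874-67277123, plus strand: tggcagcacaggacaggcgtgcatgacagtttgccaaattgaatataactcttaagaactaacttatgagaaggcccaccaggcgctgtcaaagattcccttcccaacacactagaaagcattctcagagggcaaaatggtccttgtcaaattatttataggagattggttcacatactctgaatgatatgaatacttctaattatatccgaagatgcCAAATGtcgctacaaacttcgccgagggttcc
Myh2, chr11:67170777-67171026, plus strand: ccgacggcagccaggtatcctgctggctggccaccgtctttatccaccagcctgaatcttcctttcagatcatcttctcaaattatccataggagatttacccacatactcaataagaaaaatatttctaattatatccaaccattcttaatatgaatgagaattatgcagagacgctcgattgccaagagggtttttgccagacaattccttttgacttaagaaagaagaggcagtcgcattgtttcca
Myh1, chr11:67199852-67200101, plus strand: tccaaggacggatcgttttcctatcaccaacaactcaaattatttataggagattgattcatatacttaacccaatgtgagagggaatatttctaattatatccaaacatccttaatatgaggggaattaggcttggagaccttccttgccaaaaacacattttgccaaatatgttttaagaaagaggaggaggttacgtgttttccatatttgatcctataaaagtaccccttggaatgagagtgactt
Myh4, chr11:67237562-67237811, plus strand: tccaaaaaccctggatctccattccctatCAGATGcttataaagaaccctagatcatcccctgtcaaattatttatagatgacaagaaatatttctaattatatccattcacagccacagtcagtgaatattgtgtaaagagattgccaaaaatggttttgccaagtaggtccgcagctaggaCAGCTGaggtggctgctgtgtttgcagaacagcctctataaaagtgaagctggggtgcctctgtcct

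RefSeq windows were found for 9 of the 10 members, and Myh11 was not among them. CANNTG, which reads the same on both strands, occurred in 7 of the 9 and in 66.2% of all 32851 promoter windows of this length. Myh3 held 1 such match, CAGTTG at 191 bases before the start, and Myh8 held 1, CAAATG at 32 bases. Myh4, with 1 read, held 2, including CAGCTG at 67 bases, a form found in 13.0% of all windows. The windows of Myh1 and Myh2 held no match. The MEF2 motif, searched on both strands, was matched in 3 members (Myh1, Myh4 and Myh8, each overlapping a reversed TATAAA) and in 2.92% of all windows. The windows of Myh1, Myh2 and Myh4 share a run of 20 bases, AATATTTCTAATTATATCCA, that occurred in none of the other windows on either strand. Its 14-base core, TTCTAATTATATCC, also lies 54 bases before the Myh8 start and in no window of another gene. Myh3 lacks both runs. The core lies 160 bases before the start of Myh1, 158 before Myh4 and 125 before Myh2, so the windows do not cover matching stretches. A motif absent from the Myh8 or Myh2 window may lie outside it, which was not tested. TATAAA on the gene's own strand lay 29 bases before the start of Myh3, 32 before Myh1, and 31 and 213 before Myh4, and 12.4% of all windows hold this motif on either strand. These matches describe letters in short windows and carry no statement on binding.

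Other sarcomeric heavy chains outside the set were read for context. Myh7b, a slow-type chain with its own gene on chromosome 2, had an FPKM of 4.58 (4.19 to 5.01) with Myod1 expression, 0.0185 in the empty expression vector control, and between 0.0270 and 0.0896 in the other libraries. Its log2 ratio was 2.45, and its level per coding length was 1.28 times that of Myh6 (1.12 to 1.47). Myh13 and Myh15 had at most 2 reads in any library. Introns of Myh6, Myh7 and Myh7b hold microRNAs of one family, shown here with the seed, bases 2 to 8, in capitals.
miR-208a-3p, in Myh6, chr14:54949072-54949093, minus strand: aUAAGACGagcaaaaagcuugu
miR-208b-3p, in Myh7, chr14:54975710-54975731, minus strand: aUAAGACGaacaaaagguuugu
miR-499-5p, in Myh7b, chr2:155622893-155622913, plus strand: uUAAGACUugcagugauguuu

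The first 2 share the seed UAAGACG, and the third has UAAGACU. All 3 microRNA genes were listed at 0 in every library, including the Myod1 library in which their hosts were detected. Library kits of this kind lose RNAs as short as mature microRNAs, so these counts do not measure them.

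The heavy chains were next set beside the proteins they assemble with. Among 6 sarcomeric light chains, 4 were at least 2-fold higher with Myod1 expression (14.0% of all genes), and the median log2 ratio of the 6 was 7.29, against 0.02 over all genes compared. Mylpf, the fast regulatory chain, reached an FPKM of 9518 against 7.61 in the control. Myl1, the fast essential chain, reached 2147 against 0 reads, and Myl4, the embryonic and atrial essential chain, 1119 against 0.172. Myl3, the slow and ventricular essential chain, stood lower at 24.5 against 0 reads. Myl2, the slow regulatory chain, had 0.424 against 0.251 and was not called, and Myl7, the atrial regulatory chain, had 0 reads in both.

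Of 19 genes of the thick filament and its assembly, 14 were at least 2-fold higher with Myod1 expression and 1 was lower (14.0% and 7.55% of all genes), with a median log2 ratio of 3.22. Unc45b and Smyd1, a chaperone and a methyltransferase that act in myosin folding and thick filament assembly, reached an FPKM of 305 and 271, each against 0 reads in the control. Mybph, a myosin-binding protein, reached 557 against 0 reads, and the M-band proteins Myom2, Myom3 and Myom1 stood at 103, 63.98 and 44.6. Hsp90aa1, the heat shock protein that works with Unc45 chaperones, was the lower one, at 33.6 against 233. Its log2 ratio was -2.76, -2.11 against the other control, and -0.65 between the 2 controls. It was also lower with Setdb1 knockdown, at 22.9 against 148 (log2 ratio -2.65, and -3.29 against the other control). Hsp90ab1, the constitutive form, had a ratio of -0.12. Unc45a, the general form of the chaperone, had -0.70, and passed the limit only when each library was divided by its FPKM sum.

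Genes of both fibre programmes were higher alongside the embryonic chain, where 14.0% of all genes were higher and 7.55% lower. Of 10 fast fibre genes 9 were called, with a median log2 ratio of 6.99, led by Mylpf, Myl1, Tnnt3 (2112 against 0.155) and Tnni2 (526 against 0 reads). Of 9 slow fibre genes 6 were higher, with a median of 4.70, led by Tnni1 (874 against 0.0170), Tnnt1 (log2 ratio 8.55) and Tnnc1 (433 against 0.0588), while Tpm3 was lower at 51.5 against 109. Among the 9 fast genes called, Pvalb, a calcium buffer (1.71, 28 reads), and Tnnc2, the fast troponin C (1.35, 17 reads), had the lowest levels, both from 0 reads in the control. Of 21 regulators on the list, 9 were higher, Myod1 itself among them, and 0 lower (14.0% and 7.55% of all genes), and the list's median log2 ratio was 0.58. They included Myog (948 against 0 reads), Tead4 (53.2 against 9.70), Mef2d (120.1 against 39.3) and Tbx15 (20.9 against 1.75), a factor of fast glycolytic fibres.

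**Figure D3:**
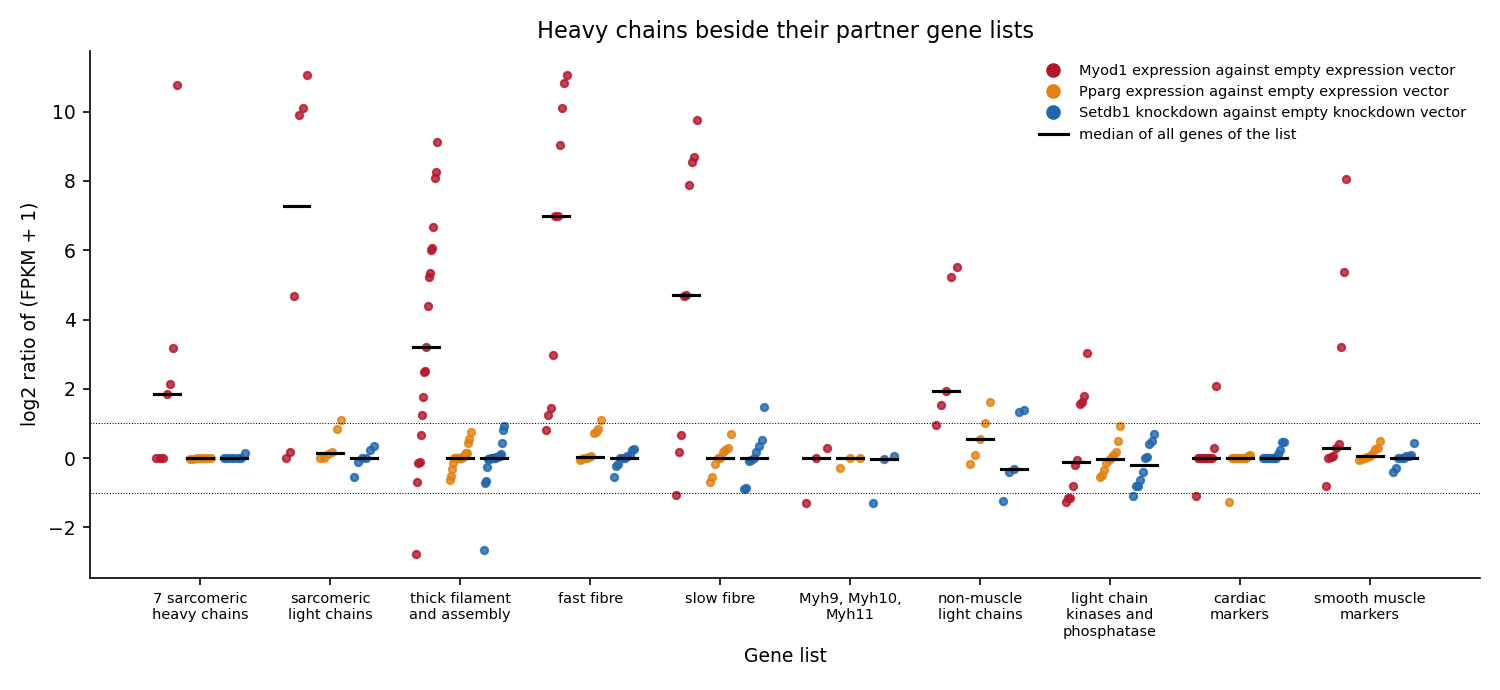
Log2 ratio of (FPKM + 1) for each gene of 10 lists (points) in the 3 treatment comparisons, with the median of each list as a black line and dotted lines at the 2-fold limit. In the Myod1 comparison the medians were 1.85 for the sarcomeric heavy chains, 7.29 for the sarcomeric light chains and 3.22 for the thick filament genes, and with Pparg expression and Setdb1 knockdown the medians of those 3 lists lay between 0.00 and 0.13.

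Chains named for the heart were read beside other cardiac genes. Of 11 cardiac markers, 8 had 0 reads in the Myod1 library, among them Nkx2-5, Tbx5, Tbx20, Hand2, Tnni3 and Ryr2. Gata4 had an FPKM of 3.21 (197 reads) there and 0 reads in the other 4, and Nppb was lower, at 11.6 against 26.3 (log2 ratio -1.11, and -0.59 against the other control, which is under the limit). The summed level of the list was 15.1 with Myod1 expression and between 10.4 and 26.3 in the other libraries. Between 7 and 10 of the 11 were at 0 in each of the other libraries too, so this count does not set the Myod1 library apart. Actc1 (2378), Myl4 (1119) and Myl3 (24.5) are not on this list and were high or detected there. Myl4 is also an embryonic chain and Myl3 also a slow fibre chain. Whether these genes mark heart in this library was not tested.

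The genes nearest to Myh3 in level over the 5 libraries were all of the sarcomere. By Euclidean distance of log2(FPKM + 1) among the 12842 genes, Actc1, the cardiac alpha actin, came first at 0.50, followed by Tnnt3 (0.75), Myl1 (0.79), Myl4 (0.90) and Tpm2 (1.12). Actc1 had an FPKM of 2378 with Myod1 expression and at most 0.0370 elsewhere. Such a measure over 5 libraries, of which 1 carries the signal, ranks genes by their level in that library.

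Myh9, the main non-muscle chain, was the member with reads in quantity in all 5 libraries. Myh9 (ENSMUSG00000022443, chromosome 15, 77760587 to 77842175, minus strand) had an FPKM of 96.9 (95.6 to 98.3) in the empty expression vector control and 79.1 (77.99 to 80.2) with Pparg expression. It had 52.6 (51.6 to 53.5) in the empty knockdown vector control, 39.2 (38.3 to 40.1) with Myod1 expression and 20.7 (20.1 to 21.3) with Setdb1 knockdown. No interval overlapped another, and the 2 controls themselves were 1.84-fold apart. Per kilobase of coding sequence the levels ran from 45.5 to 213, since the Myh9 gene model spans 12928 bases for 5883 coding bases.

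With Myod1 expression Myh9 kept 40.4% of the level of its control, a log2 ratio of -1.28. Against the empty knockdown vector control 74.6% remained and the log2 ratio was -0.41, so that this call was lost with the other control. With Setdb1 knockdown 39.4% remained against its own control (log2 ratio -1.30) and 21.4% against the other (-2.17), so Myh9 was at least 2-fold lower against both. That held for 7.56% of the genes compared, while 10.3% were lower against its own control and 11.0% against the other. With Pparg expression the log2 ratio was -0.29 against the shared control and 0.58 against the other, so its direction depended on the control. Between the controls it was -0.87, where 1.44% of genes were at least 2-fold lower and 1.23% higher.

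**Figure D4:**
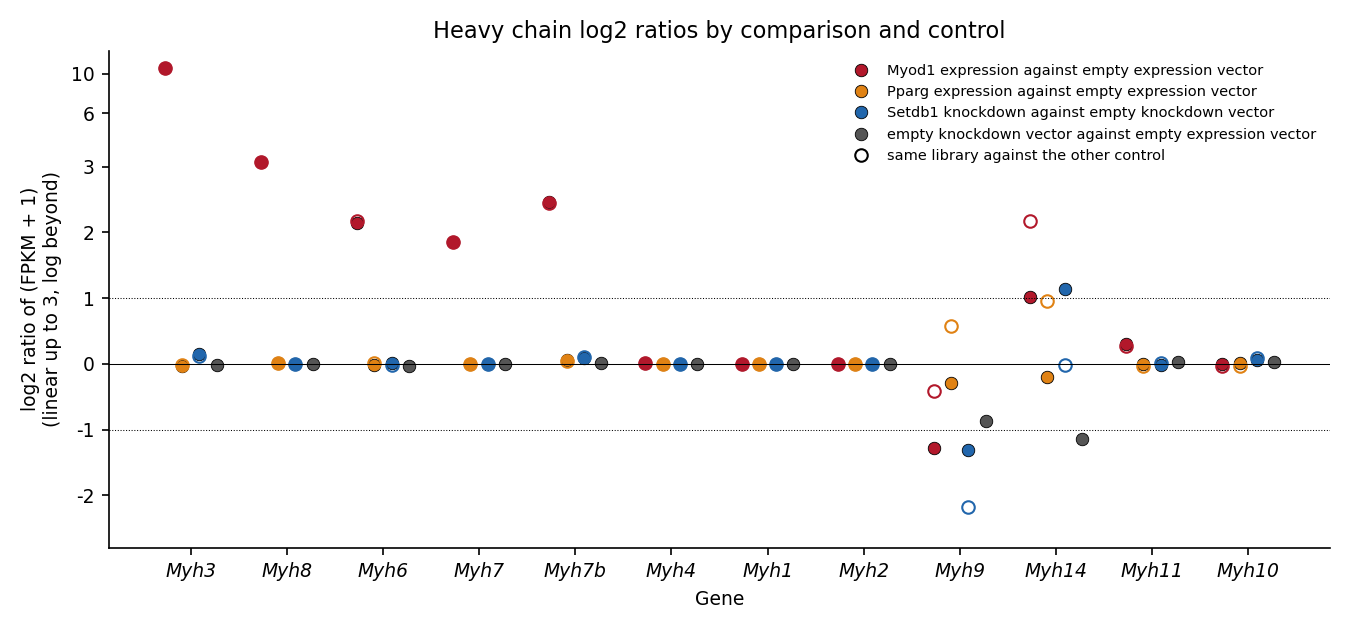
Log2 ratio of (FPKM + 1) for the 10 heavy chain members, Myh7b and Myh14 in the 3 treatment comparisons and between the 2 controls (filled points), and for each treated library against the other control (open points). Dotted lines mark 2-fold, and the axis is linear up to 3 and logarithmic beyond. Filled and open points coincide for the sarcomeric chains and lie apart for Myh9 (-1.28 and -0.41 with Myod1 expression) and Myh14.

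Myh10, the second non-muscle chain, was nearly silent in this line. It had 2 reads with Myod1 expression, 3 with Pparg expression, 2 in the empty expression vector control, 6 in the empty knockdown vector control and 15 with Setdb1 knockdown. The largest of these is an FPKM of 0.0775 (0.0470 to 0.128), and the ratio to its control was 2.26 with a counting interval of 0.828 to 7.11, which includes 1. Against the other control, with 2 reads, it was 6.62 (1.54 to 59.7). Myh11, the smooth muscle chain, had 36 reads with Myod1 expression, an FPKM of 0.301 (0.218 to 0.417), and between 7 and 10 reads in the other libraries. The ratio to its control was 5.34 (2.35 to 14.2) and to the other control 3.83 (1.86 to 8.65), yet its log2(FPKM + 1) difference of 0.30 did not reach the limit at such a level.

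Myh11 was read beside 9 smooth muscle markers. Their summed FPKM was 417 with Myod1 expression and between 12.0 and 15.4 in the other 4 libraries. Of the 9, 3 were at least 2-fold higher and 0 lower (14.0% and 7.55% of all genes), with a median log2 ratio of 0.29. The 3 were Acta2, smooth muscle alpha actin, at 267 against 0 reads, Smtn at 90.4 against 8.93, and Lmod1 at 57.2 against 0.403. Myocd, the smooth muscle master regulator, had 0 reads in all libraries, and Cnn1 and Tagln, 2 defining contractile genes, had an FPKM of 0.0465 and 0.224 with Myod1 expression. The part of these genes in the Myh11 value was not tested.

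Myh14, the third non-muscle chain and no member of the set, differed from Myh9. It had an FPKM of 10.9 with Myod1 expression, 4.11 with Pparg expression, 4.86 in the empty expression vector control, 4.80 with Setdb1 knockdown and 1.64 in the empty knockdown vector control. It was highest in the Myod1 library, where Myh9 held 78.3% of the summed FPKM of Myh9, Myh10 and Myh14, against 95.2% in the control. By reads, which are not divided by gene length, these shares were 86.5% and 97.2%. The share of Myh9 was also lower with Setdb1 knockdown, at 80.9% of FPKM against 96.9% in its control (88.2% and 98.2% by reads). The log2 ratio of Myh14, 1.02 with Myod1 expression, was 0.66 after division by the FPKM sum and 2.17 against the other control. With Setdb1 knockdown it was 1.13 against its own control and -0.02 against the other, while the controls differed by -1.15.

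The light chains listed as non-muscle moved apart from Myh9 in the Myod1 library. Of 5 light chains 4 were at least 2-fold higher there and 0 lower (14.0% and 7.55% of all genes), with a median log2 ratio of 1.93. Myl6, an essential chain, had 189 against 64.3, Myl6b 158 against 3.25, and the regulatory chains Myl9 and Myl12a 93.2 against 1.05 and 85.3 against 21.7. The remaining one, Myl12b, had 2.46 against 0.773. With Pparg expression, where 4.22% of genes were higher, Myl9 (5.30, log2 ratio 1.62) and Myl12a (44.7, 1.01) were higher, the latter not against the other control (0.54), where Myl6 was called instead (94.7 against 45.2, log2 ratio 1.05). With Setdb1 knockdown, where 9.34% of genes were higher and 10.3% lower, Myl6 (119 against 45.2) and Myl6b (6.76 against 2.07) were higher and Myl9 was lower (0.233 against 1.90), and none of these 3 kept the limit against the other control.

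Of 10 kinases and phosphatase subunits that act on the regulatory light chain, 4 were higher and 3 lower with Myod1 expression (14.0% and 7.55% of all genes), and the list's median log2 ratio was -0.13. The striated muscle kinases Mylk4, Mylk2 and Mylk3 were higher, at 7.24 against 0 reads, 2.35 against 0.0830 and, for Mylk3, 132 reads against 0, together with Ppp1r12b, a phosphatase subunit (6.90 against 1.30). The kinases Rock1 (0.658 against 2.96) and Rock2 (1.97 against 5.56) and the phosphatase subunit Ppp1r12a (2.87 against 7.59) were lower. Against the other control Rock1 (-0.73) and Rock2 (-0.65) no longer passed the limit, and Ppp1r12a (-1.10) did. With Setdb1 knockdown 1 of the 10 was lower, a share near the 10.3% of all genes. It was Rock2 (1.17 against 3.67, log2 ratio -1.11, and -1.59 against the other control), and Rock1 was called only against the other control (-1.16, and -0.64 against its own).

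**Figure D5:**
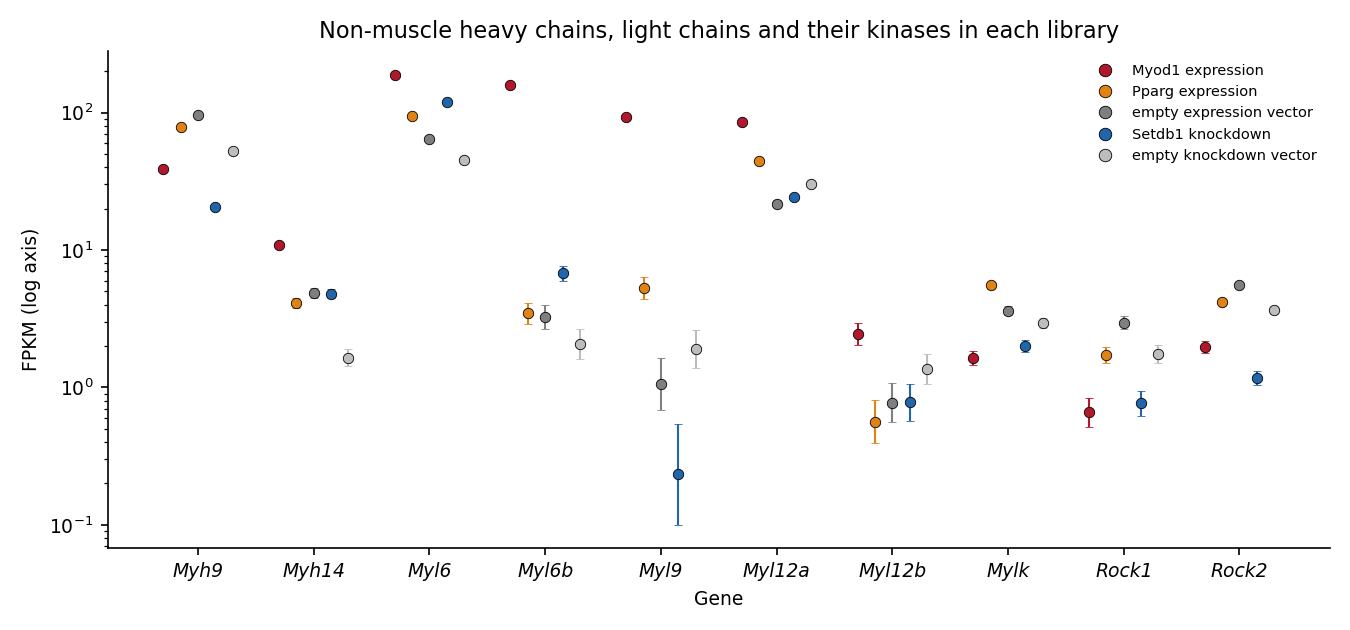
FPKM (log axis) of Myh9, Myh14, the light chains listed as non-muscle, Mylk, Rock1 and Rock2 in the 5 libraries, with 95% Wilson intervals where they exceed the point. In the Myod1 expression library Myl6, Myl6b, Myl9 and Myl12a are at their highest while Myh9 (39.2) lies below both controls (96.9 and 52.6).

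The genes nearest to Myh9 in level over the 5 libraries were Stmn1 (distance 0.65), mt-Ts2 (0.70), Eif3a (0.72), Ncapd2 (0.77) and Dnmt1 (0.78). Stmn1, a tubulin-binding protein, had an FPKM of 41.3 with Myod1 expression, 74.2 with Pparg expression, 72.5 and 69.0 in the controls and 25.4 with Setdb1 knockdown. Ncapd2 is a subunit of condensin and Dnmt1 the maintenance DNA methyltransferase. Since these genes were chosen for levels like those of Myh9 in the same libraries, their closeness to it follows from the choice. Their order over the libraries was not always that of Myh9, as the values of Stmn1 show.

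Pparg expression and Setdb1 knockdown left the sarcomeric chains near the limit of detection. With Pparg expression 0 of the 10 members were at least 2-fold higher or lower, where 4.22% and 2.30% of genes were. Against the other control 0 members were called as well, where 5.52% of genes were higher and 2.41% lower. The 7 sarcomeric chains had log2 ratios between -0.03 and 0.01. With Setdb1 knockdown 0 of the 10 were higher, where 9.34% of genes were (8.72% against the other control), and 1, Myh9, was lower, where 10.3% of genes were (11.0% against the other control), a share near that of the members. Myh3 had 30 reads with Setdb1 knockdown against 15 in its control, a ratio of 1.81 with a counting interval of 0.942 to 3.61 that includes 1. Mylpf, at 17.6 with Pparg expression against 7.61, was the only sarcomeric light chain called in either comparison. In all, the 10 members took 1.12% of the reads of the Myod1 library, 0.112% with Pparg expression, 0.0288% with Setdb1 knockdown, and 0.122% and 0.0703% in the 2 controls.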

How the data were processed

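RNA of 5 B16F10 libraries was sequenced after TRIzol extraction and NEBNext Ultra library preparation, per the labels' protocols. The submitters' processing notes name CASAVA, HISAT2, featureCounts 1.5.0-p3 and build GRCm38, while rules for strand and shared reads are not given in the sources used here. The authors deposited 1 table of FPKM values per gene. Every non-zero value times gene length was a whole multiple (within 0.001) of 1 step per library, which gave back the reads. The members' positions and lengths equalled GENCODE M21 (10 of 10). The comparison took genes whose FPKM reached 1 in any library and used log2(FPKM + 1) with a limit of 2-fold. Intervals are Wilson at 95%, ratios exact conditional. Python 3.11.15, numpy 2.4.6, pandas 2.3.3, scipy 1.17.1 and matplotlib 3.10.9 were used. The recovery of reads was run on simulated libraries made with the formula that it inverts, and the fold calls at equal library size. This checks the code and not the scaling of the real libraries. The members, the 14 lists and the naming rule (members, other class II chains, genes of the lists among their 4 highest or called, cluster neighbours, the 5 nearest in level) were chosen with earlier results of these data known. Genes left over from a small count, or at 0 reads, were named after their values were seen. The values of 1 listed regulator are not reported here. Alternatives were another pseudocount, filter, limit, scaling or control.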

Additional observations from a re-analysis of the deposited data

How the results depend on the processing

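The count of 4 of the 10 members higher with Myod1 expression was 3 at a 4-fold limit and 5, with Myh11 added, when 3 reads served as the lowest value in place of a pseudocount, a setting chosen after seeing the data. The count of 1 lower chain, Myh9, became 0 at a 4-fold limit and with the other control library. With Setdb1 knockdown the count of 1 lower chain also became 0 at a 4-fold limit. There, the same 3-read setting called 1 higher chain, Myh10, on 15 reads. The share of Myh3 in the sarcomeric level was 98.9% by reads, 99.1% with Myh7b, Myh13 and Myh15 added, and 98.9% per coding length, which was also chosen after seeing the data. The log2 ratio of Myh14 with Setdb1 knockdown reversed from 1.13 to -0.016 with the other control. Of 59 alternative values of the 10 called log2 ratios of the members, Myh7b and Myh14, 4 fell under the limit: 1 of Myh9 and 3 of Myh14. Dividing by the FPKM sum moved the median of all genes by -0.28 in the Myod1 comparison, and scaling to the 75th percentile by -0.12. No paired analysis was possible because each group has 1 library. Chains with few reads, such as Myh10, Myh11 and Myh4, have wide counting intervals and depend on the handling of low values. The log2 ratio of Myh11 with Myod1 expression was 0.30 in the main setting and 1.36 with a pseudocount of 0.1. The part of depth in this was not tested.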
